A study of Mus musculus with 18 samples.

Results

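The response of RelA(wt) cells to 2 h of TNF was read from 4 of the 18 poly(A) RNA libraries of the series. They were chosen by their labels: 2 libraries of cells treated with 5 ng/ml TNFα for 2 h and 2 libraries of the same cells left unstimulated (0 h). The cells are immortalized mouse embryonic fibroblasts (MEF) that lack their own rela gene (rela-/-) and were reconstituted with wild-type mouse RelA from a pBABE-puro retrovirus, so RelA is driven by the vector and not by its own promoter, and the deletion, the vector and the immortalization are shared by treated and unstimulated cells. The other libraries hold RelA(wt) cells at 1 h and the same 3 times of cells carrying RelA(TA2), altered in the activation segment that binds the TAZ1 domain of the co-activators CBP and p300, or RelA(Ser276Ala), which lacks the serine whose phosphorylation favours a second contact with CBP. The methods give 2 independent replicates per condition without saying what separated them. The p-values below therefore measure spread between the libraries of a condition, estimated over all 18 libraries.

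TNF binds its receptor on the fibroblast surface and switches on the IKK kinase, which marks the IκB inhibitors for destruction and sets NF-κB dimers such as RelA:p50 free to enter the nucleus. There they activate genes for chemokines, cytokines, adhesion molecules and survival factors, and also the genes of their own inhibitors, IκBα and A20, which end the first wave. TNF also activates the JNK and p38 MAP kinases and, through them, the AP-1 factors.

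The 2 h libraries held 25.5 M and 26.3 M mapped fragments, and the 0 h libraries held 26.2 M and 30.2 M. Expression was given as FPKM, fragments per kilobase of transcript per 1000000 mapped fragments, summed over the transcripts that the assembly placed on each of 23212 RefSeq genes. Fragments per 1000000 recovered fragments (FPM) were computed from the same FPKM values and transcript lengths as a second measure, which is therefore not independent. It was the tighter of the pair, with a median SD between libraries of one condition of 0.10 on the log2 scale, against 0.31 for FPKM. A gene not assembled in a library was listed at 0, which can be a failed estimate: 114 genes had one 2 h library at 0 and the other at 5 FPKM or more, and 125 genes did so at 0 h. For this reason a gene listed at 0 at one time is given by its values, and its log2 difference depends on the 0.5 FPKM added. A condition with both libraries at 0 also adds no spread to the estimate shared by all conditions. The adjusted p of a gene listed at 0 can therefore be too small. All 13 fibroblast markers reached at least 1 FPKM in the 4 libraries, and their summed level was 4468 to 5327 FPKM at 2 h and 5122 to 5314 FPKM at 0 h. Of the marker lists of other cell types, 4 of 11 macrophage, 3 of 7 fat cell, 4 of 8 nerve, and 1 each of 8 endothelial, 9 epithelial and 8 muscle genes reached 1 FPKM in all 4 libraries. The macrophage list summed to 23.9 to 32.8 FPKM at 2 h and 23.3 to 32.5 FPKM at 0 h, and Csf1r and Mrc1 of that list were higher at 2 h by FPM (limma). Listed at 0 in all 4 libraries were Ptprc, Emr1 and Itgam (macrophage), Pecam1, Kdr and Tek (endothelial), and Epcam and Cdh1 (epithelial). So were Myod1 and Myog (muscle), Adipoq and Plin1 (fat cell), and Sox10 and Gfap (nerve). Other members of these lists were above 0. Cd14 (macrophage) stood at 8.07 and 6.20 FPKM at 2 h and 7.67 and 8.82 FPKM at 0 h. Cdh5 (endothelial) stood at 7.57 and 5.91 FPKM at 2 h and 2.7 and 3.2 FPKM at 0 h. Lpl (fat cell) stood at 25.6 and 23.5 FPKM at 2 h and 29.6 and 27.4 FPKM at 0 h. In bulk RNA, a change in the share of cells that express a gene and a change in RNA per cell cannot be told apart. Rela stood at 169 and 156 FPKM at 2 h and 165 and 176 FPKM at 0 h, vector-borne RelA included, a log2 difference of -0.07 ± 0.10 (SE).

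After 2 h of TNF, 157 of 12288 genes tested were higher than at 0 h, which is 1.28%, and 55 were lower, which is 0.448% (limma on log2(FPKM + 0.5), Benjamini-Hochberg adjusted p under 0.05). The increases were led by chemokines and cytokines. At least a 2-fold change was seen for 82 of the genes that rose and 29 of those that fell. The libraries of the 2 times did not overlap for any of the 212 genes. These genes were selected by a test on the same values, so the lack of overlap adds no support. The share of all genes tested without overlap was not computed. Recovered fragments placed 748 of 11815 genes higher (6.33%) and 854 lower (7.23%), 171 and 66 of them by at least 2-fold. Both measures called 127 genes higher and 36 lower, with a median log2 change on fragments of 1.09 and -0.58. With only the 4 libraries fitted, 51 genes were higher and 27 lower by FPKM. The median over all genes tested was -0.04 on the log2 scale. The count of increases was 100 without the second 0 h library, and the count of decreases was 121 without the first 0 h library, 117 without the second 0 h library and 33 without the second 2 h library.

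**Figure D1:**
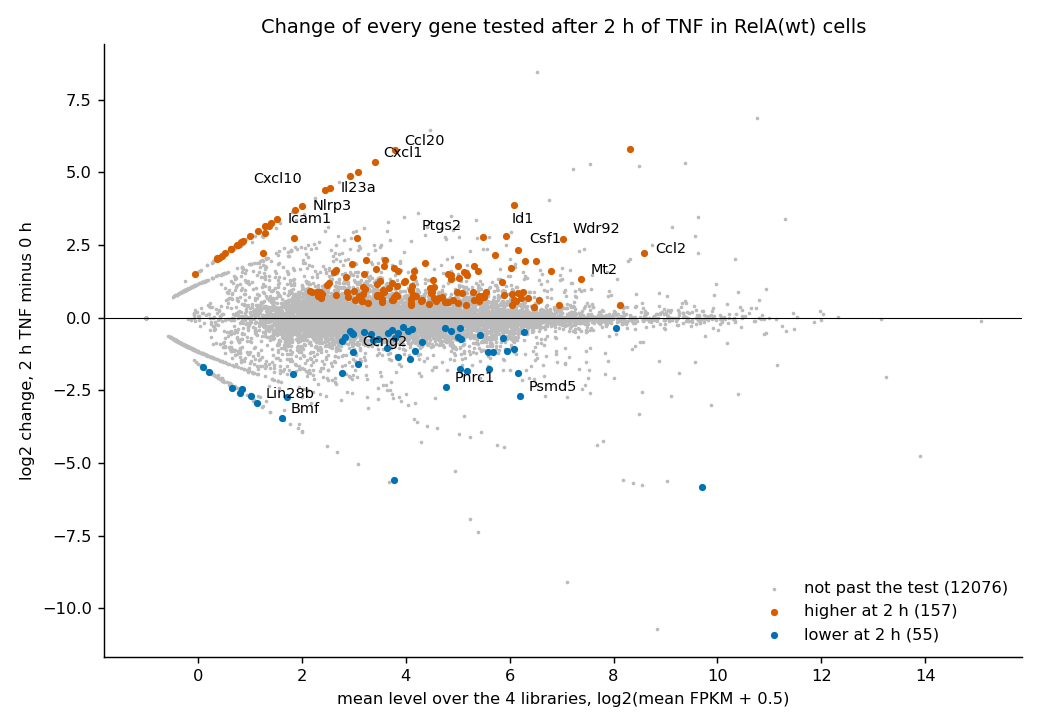
Log2 change of each of the 12288 genes tested (2 h TNF minus 0 h, vertical) against its mean level over the 4 libraries (horizontal, log2 of mean FPKM + 0.5). Orange points are the 157 genes higher at 2 h, blue points the 55 lower ones and grey points the genes that did not pass the test; the straight edges on the left are genes listed at 0 at one of the times.

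The chemokines were the steepest part of the response. Ccl20, the ligand that draws cells bearing CCR6, stood at 25.1 and 28.5 FPKM at 2 h and was listed at 0 in both 0 h libraries (limma adjusted p = 1.47e-07). Cxcl1, a neutrophil attractant, stood at 21.4 and 18.8 FPKM at 2 h and was listed at 0 at 0 h (adjusted p = 1.58e-06), as was Cxcl10, a ligand of the T cell receptor CXCR3, at 9.42 and 10.4 FPKM at 2 h (adjusted p = 0.000214). Ccl20, Cxcl1 and Cxcl10 were at 0 in all 6 untreated libraries of the 3 lines. The monocyte attractants Ccl2 and Ccl7 were already on before TNF. Ccl2 stood at 639 and 631 FPKM at 2 h, against 138 and 135 FPKM at 0 h, a log2 change of 2.21 ± 0.20 (SE; adjusted p = 0.00026). Ccl7 stood at 83.7 and 87.7 FPKM at 2 h, against 18.4 and 19.1 FPKM at 0 h, a log2 change of 2.16 ± 0.19 (adjusted p = 0.000233). Of 14 CC chemokines listed 7 were tested, and 3 of these rose, with a median log2 change of 2.16 over the 7. Of 14 CXC and CX3C chemokines 5 were tested, and 2 of these rose, with a median of 1.03 over the 5. None fell. A gene was tested if it reached 1 FPKM in 2 of the 18 libraries. Ccl20, Cxcl1 and Cxcl10 thus entered only through TNF-treated libraries, and the shares and medians leave out the silent members. Cxcl2, a relative of Cxcl1, was listed at 0 in all 4 libraries.

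Promoters of 5 genes that rose and hold the κB consensus, the letters known to bind NF-κB, are printed to show where those letters lie; Icam1, Ptgs2, Atoh8 and Gbp7, which also rose, held no match in theirs. The sequences are RefSeq promoters of build GRCm38.p6, the 250 bases before the annotated gene start, 5′ to 3′ on the strand of the gene, with each match to the 10-base κB consensus on either strand in capitals (overlapping matches run together). The chromosome positions are Ccl20 chr1:83116516-83116765, Cxcl1 chr5:90890995-90891244, Cxcl10 chr5:92348890-92349139 (minus strand), Csf1 chr3:107760470-107760719 (minus strand) and Tnip3 chr6:65590148-65590397.
Ccl20: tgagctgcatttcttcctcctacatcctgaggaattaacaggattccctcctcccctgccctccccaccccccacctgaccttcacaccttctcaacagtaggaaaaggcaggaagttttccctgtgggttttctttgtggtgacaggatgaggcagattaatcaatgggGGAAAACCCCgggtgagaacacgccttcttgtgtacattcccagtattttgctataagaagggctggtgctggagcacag
Cxcl1: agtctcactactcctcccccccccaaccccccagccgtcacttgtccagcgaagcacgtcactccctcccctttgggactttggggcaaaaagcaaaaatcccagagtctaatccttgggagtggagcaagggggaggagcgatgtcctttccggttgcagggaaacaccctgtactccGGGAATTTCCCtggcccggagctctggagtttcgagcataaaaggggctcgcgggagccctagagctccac
Cxcl10: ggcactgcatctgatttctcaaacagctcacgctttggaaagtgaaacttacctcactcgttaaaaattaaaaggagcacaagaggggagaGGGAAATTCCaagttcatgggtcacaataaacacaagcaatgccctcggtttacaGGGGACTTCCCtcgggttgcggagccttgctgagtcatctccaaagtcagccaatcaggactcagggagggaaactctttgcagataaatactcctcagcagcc
Csf1: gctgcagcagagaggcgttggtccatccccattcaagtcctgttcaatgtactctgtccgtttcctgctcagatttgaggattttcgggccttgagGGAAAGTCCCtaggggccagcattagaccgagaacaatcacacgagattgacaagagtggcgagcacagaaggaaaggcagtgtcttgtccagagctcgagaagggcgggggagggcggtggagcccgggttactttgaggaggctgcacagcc
Tnip3: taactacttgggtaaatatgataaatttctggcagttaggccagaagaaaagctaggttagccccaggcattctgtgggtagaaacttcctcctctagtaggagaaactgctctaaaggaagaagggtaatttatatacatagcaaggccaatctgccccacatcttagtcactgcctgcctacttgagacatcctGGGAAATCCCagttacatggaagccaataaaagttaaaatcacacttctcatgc
In these promoters the last match began between 54 and 154 bases before the gene start. Of the 84 genes that rose and had a single promoter of 300 bases in the table (250 before and 50 after the start), 22 held the consensus, which is 26.2%. The share was 6.06% of the 33 such genes that fell (2 genes), 10.3% of the 6949 genes tested and 8.01% of all 22862 promoters. The AP-1 letters TGANTCA were found in 11.9% of the promoters of genes that rose (10 genes), in none of those of genes that fell, in 4.79% of the genes tested and in 7.98% of all promoters. Both searches read both strands, and a match describes letters and not binding.

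Of the cytokines and growth factors 7 of 26 members tested rose, with a median log2 change of 0.76, and none fell; on fragments 13 of 20 rose and none fell. Csf1, the growth factor of macrophages, had the most even values: 115 and 124 FPKM at 2 h against 23.6 and 23.1 FPKM at 0 h, a log2 change of 2.33 ± 0.11 (SE; adjusted p = 1.58e-06). Il23a, the p19 subunit of interleukin 23, stood at 9.41 and 11.8 FPKM at 2 h and was listed at 0 at 0 h (adjusted p = 0.000112). Lif, a cytokine of the interleukin 6 family, stood at 10.6 and 13.0 FPKM at 2 h, against 2.78 and 2.99 FPKM at 0 h (log2 change 1.86 ± 0.16). All these libraries stood clear of their 0 h counterparts. Tnfsf9, the ligand of the T cell co-stimulator 4-1BB, stood at 19.9 and 22.8 FPKM at 2 h, against 8.95 and 8.68 FPKM at 0 h (log2 change 1.23 ± 0.14, adjusted p = 0.00113). Areg, a ligand of the EGF receptor, stood at 20.6 and 23.8 FPKM at 2 h, against 10.8 and 11.4 FPKM at 0 h (log2 change 0.96 ± 0.14). Clcf1 and Vegfa were the other members that rose. Csf2 and Tnf, which code for GM-CSF and TNF itself, were listed at 0 in all 4 libraries.

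Ptgs2, the inducible cyclooxygenase that feeds prostaglandin synthesis, stood at 73.9 and 81.6 FPKM at 2 h, against 10.7 and 11.1 FPKM at 0 h, a log2 change of 2.78 ± 0.32 (SE; adjusted p = 0.00113). It was the one member of 7 tested in the prostaglandin list that passed by FPKM, and the median of that list was 0.00. On fragments 2 of the 7 rose, Ptgs2 and Ptges. Icam1, which leukocytes grip on the vessel wall, stood at 4.79 and 4.67 FPKM at 2 h and was listed at 0 at 0 h (adjusted p = 0.000332). In the list of adhesion molecules and proteases 3 of 20 members rose, Icam1 and Timp3 among them, and the median log2 change was 0.63. On recovered fragments 14 of the same 20 genes rose. Vcam1, a second leukocyte adhesion molecule, was among those 14: it had 114 and 118 FPM at 2 h against 57.5 and 53.8 at 0 h (log2 change 1.05 ± 0.20, adjusted p = 0.00533), while its FPKM values of 43.9 and 42.1 at 2 h and 35.5 and 20.2 at 0 h did not pass (adjusted p = 0.427).

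**Figure D2:**
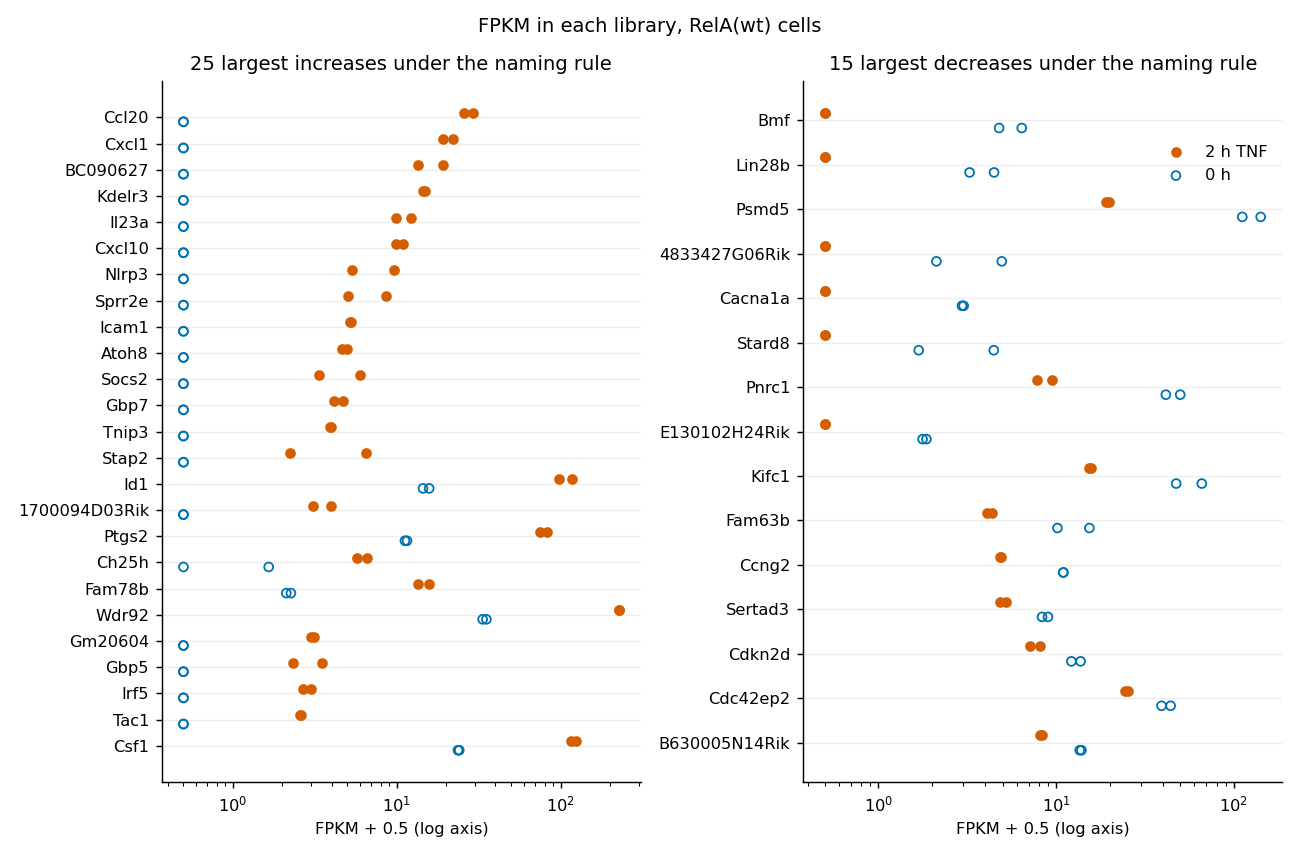
FPKM + 0.5 in each library (log axis) for the 25 largest increases and 15 largest decreases that both measures called, 2 h TNF as filled orange points above 0 h as open blue points. Points at the left edge are libraries in which the gene was listed at 0. Genes with overlapping times were left out by the naming rule.

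By FPKM 4 of 17 inhibitors and feedback genes of NF-κB itself rose, with a median log2 change of 0.76, and 13 did not pass. They were Tnip3 and Tnip1, partners of A20, and Nfkbie and Nfkbib, which code for IκBε and IκBβ. Nfkbie stood at 8.47 and 9.54 FPKM at 2 h, against 2.89 and 2.20 FPKM at 0 h (log2 change 1.65 ± 0.27, adjusted p = 0.0123), and Tnip3 at 3.48 and 3.41 FPKM at 2 h, listed at 0 at 0 h (adjusted p = 0.00694). On fragments 12 of the 17 rose. Nfkbia, the gene of IκBα, had 63.6 and 52.2 FPM at 2 h against 16.9 and 20.6 at 0 h (log2 change 1.60 ± 0.13, adjusted p = 1.81e-05). Tnfaip3, the gene of A20, had 52.2 and 52.5 FPM at 2 h against 14.2 and 14.7 at 0 h (log2 change 1.82 ± 0.10, adjusted p = 5.87e-07). Neither passed by FPKM: Nfkbia stood at 41.9 and 33.7 FPKM at 2 h and 34.1 and 14.2 FPKM at 0 h (adjusted p = 0.371), and Tnfaip3 at 10.6 and 10.5 FPKM at 2 h and 7.18 and 3.29 FPKM at 0 h (adjusted p = 0.08).

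None of the 5 NF-κB subunit genes passed by FPKM (limma; 2 had an unadjusted p under 0.05, and the median of the list was 0.65), and 3 did on fragments, Nfkb1, Nfkb2 and Relb. Relb, the partner of p52 in the non-canonical pathway, stood at 21.96 and 22.7 FPKM at 2 h against 6.82 and 6.88 FPKM at 0 h (adjusted p = 0.0511), and at 52.1 and 52.5 FPM against 13.8 and 14.8 (log2 change 1.84 ± 0.13, adjusted p = 7.33e-06). Nfkb2, the p52 precursor, had 333 and 336 FPM at 2 h against 180 and 181 at 0 h (log2 change 0.89 ± 0.06, adjusted p = 4.7e-06). By FPKM it stood at 100.5 and 99.5 at 2 h against 52.2 and 52.2 at 0 h (adjusted p = 0.259). The spread in that test is shared over all 18 libraries. In RelA(Ser276Ala) cells at 0 h the Nfkb2 libraries stood at 102.3 and 47.3 FPKM. Of the 25 genes that carry the signal in from the TNF receptor to IKK, 1 passed by FPKM, with a median log2 change of 0.02. On fragments 5 rose (Birc3, Birc2, Map3k14, Tnfrsf1b and Ikbke) and 3 fell (Ripk1, Ikbkg and Tab2), beside 6.33% and 7.23% of all genes tested. The single call by FPKM, Sharpin, a subunit of the linear ubiquitin ligase, stood at 36.4 and 48.6 FPKM at 2 h against 13.6 and 16.3 FPKM at 0 h (adjusted p = 0.0105), but had 30.1 and 29.7 FPM at 2 h and 28.2 and 32.2 at 0 h. In the list of RelA co-activators Ncoa2, a p160 family member, fell by 0.46 ± 0.09 on the log2 scale by FPKM and no other member passed; on fragments 4 of 20 fell and Cited2 rose. Crebbp and Ep300, the genes of CBP and p300, did not pass: Crebbp stood at 7.76 and 5.31 FPKM at 2 h and 9.70 and 12.1 FPKM at 0 h, and Ep300 at 12.2 and 11.2 FPKM at 2 h and 12.7 and 12.7 FPKM at 0 h.

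Among immediate-early transcription factors 7 of 30 rose and Btg2 fell by FPKM, with a median log2 change of 0.39, and 13 rose and 2 fell on fragments. Cebpd, a C/EBP factor of the acute-phase response, stood at 55.2 and 43.9 FPKM at 2 h, against 14.9 and 13.2 FPKM at 0 h (log2 change 1.77 ± 0.22, adjusted p = 0.0022). The AP-1 subunit genes Junb and Fosl2 rose as well. Junb stood at 49.1 and 56.4 FPKM at 2 h, against 17.9 and 19.8 FPKM at 0 h (log2 change 1.46 ± 0.21), and Fosl2 at 45.6 and 47.0 FPKM at 2 h, against 17.8 and 17.2 FPKM at 0 h (log2 change 1.38 ± 0.12). Nr4a2, an orphan nuclear receptor, stood at 24.1 and 25.7 FPKM at 2 h, against 9.69 and 8.67 FPKM at 0 h (log2 change 1.39 ± 0.13). Fos, the founding AP-1 gene, was listed at 0 at 2 h and at 0 h. Egr1, a zinc-finger factor of the first minutes of stimulation, stood at 6.23 and 6.98 FPKM at 2 h, against 13.5 and 15.5 FPKM at 0 h (log2 difference -1.08 ± 0.27, adjusted p = 0.09; adjusted p = 0.0162 on fragments).

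A second group of regulators, the inhibitors of DNA binding (Id proteins, which hold basic helix-loop-helix factors away from DNA), rose to high levels. Id1 stood at 96.9 and 116 FPKM at 2 h, against 14.0 and 15.3 FPKM at 0 h, a log2 change of 2.82 ± 0.29 (SE; adjusted p = 0.000498). Id3 stood at 116 and 133 FPKM at 2 h, against 33.3 and 30.0 FPKM at 0 h (log2 change 1.96 ± 0.26), and Id2 at 88.3 and 108 FPKM at 2 h, against 43.8 and 19.7 FPKM at 0 h (log2 change 1.72 ± 0.31). The wide gap between the 0 h libraries of Id2 was not seen in its fragments, at 128 and 132 FPM at 2 h and 21.3 and 23.5 at 0 h. Skil, which codes for the Smad co-repressor SnoN, and Arntl, the clock gene that codes for BMAL1, rose by log2 changes of 1.02 ± 0.14 and 0.48 ± 0.09. Tef, a clock-output factor, fell. These genes belong to a mixed list of circadian, Notch, Smad and Hes regulators of which 5 of 25 rose and 1 fell by FPKM, the median was 0.15, and 6 of 24 rose and 3 fell on fragments. Atoh8, itself a basic helix-loop-helix factor, stood at 4.44 and 4.16 FPKM at 2 h and was listed at 0 at 0 h (adjusted p = 0.00743).

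Innate defence genes rose in part, 5 of 20 by FPKM with a median log2 change of 0.20, and 9 of 19 on fragments. Ripk2, the kinase below the NOD receptors, stood at 19.3 and 16.9 FPKM at 2 h, against 5.03 and 4.77 FPKM at 0 h (log2 change 1.78 ± 0.14, adjusted p = 0.0001). Mt2, a metal-binding metallothionein, stood at 221 and 252 FPKM at 2 h, against 80.8 and 111 FPKM at 0 h (log2 change 1.32 ± 0.16). Saa3, an acute-phase apolipoprotein, stood at 20.5 and 20.1 FPKM at 2 h, against 4.61 and 7.43 FPKM at 0 h (log2 change 1.71 ± 0.26). Ch25h, the cholesterol 25-hydroxylase, and the receptor gene Tlr2 completed the list. Nlrp3, the sensor of an inflammasome, was not on it: it stood at 9.11 and 4.83 FPKM at 2 h and was listed at 0 at 0 h (adjusted p = 0.000705).

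Interferon-stimulated genes rose in 3 of 28 cases, with a median log2 change of 0.30, and none fell by FPKM. Irf1, a factor that both TNF and interferon induce, stood at 15.1 and 16.4 FPKM at 2 h, against 4.17 and 5.04 FPKM at 0 h (log2 change 1.68 ± 0.19, adjusted p = 0.000909). The guanylate-binding protein genes Gbp7 (4.20 and 3.65 FPKM) and Gbp5 (3.02 and 1.83 FPKM) were present at 2 h and listed at 0 at 0 h; they belong to a family of close copies between which reads can be shared. Irf5, a related factor, stood at 2.18 and 2.51 FPKM at 2 h and was listed at 0 at 0 h. On fragments 9 of 25 genes of the same list were higher at 2 h, Irf1, Gbp2, Gbp7 and Gbp5 among them, and 2 were lower, Ifit2 and Ifit3, named here after their values were seen. Antigen-processing genes had no call by FPKM (limma, 0 of 15, with 2 at an unadjusted p under 0.05), with a median of 0.14. On fragments 1 was higher and 1 lower, beside 6.33% and 7.23% of all genes tested. In the list of JAK-STAT feedback genes and receptors, 2 of 22 rose by FPKM, Socs2 and Ifngr2, the second chain of the interferon γ receptor, and on fragments 11 of 21 rose and Stat3 fell. Socs2, a suppressor of cytokine signalling, stood at 5.43 and 2.85 FPKM at 2 h and was listed at 0 at 0 h.

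**Figure D3:**
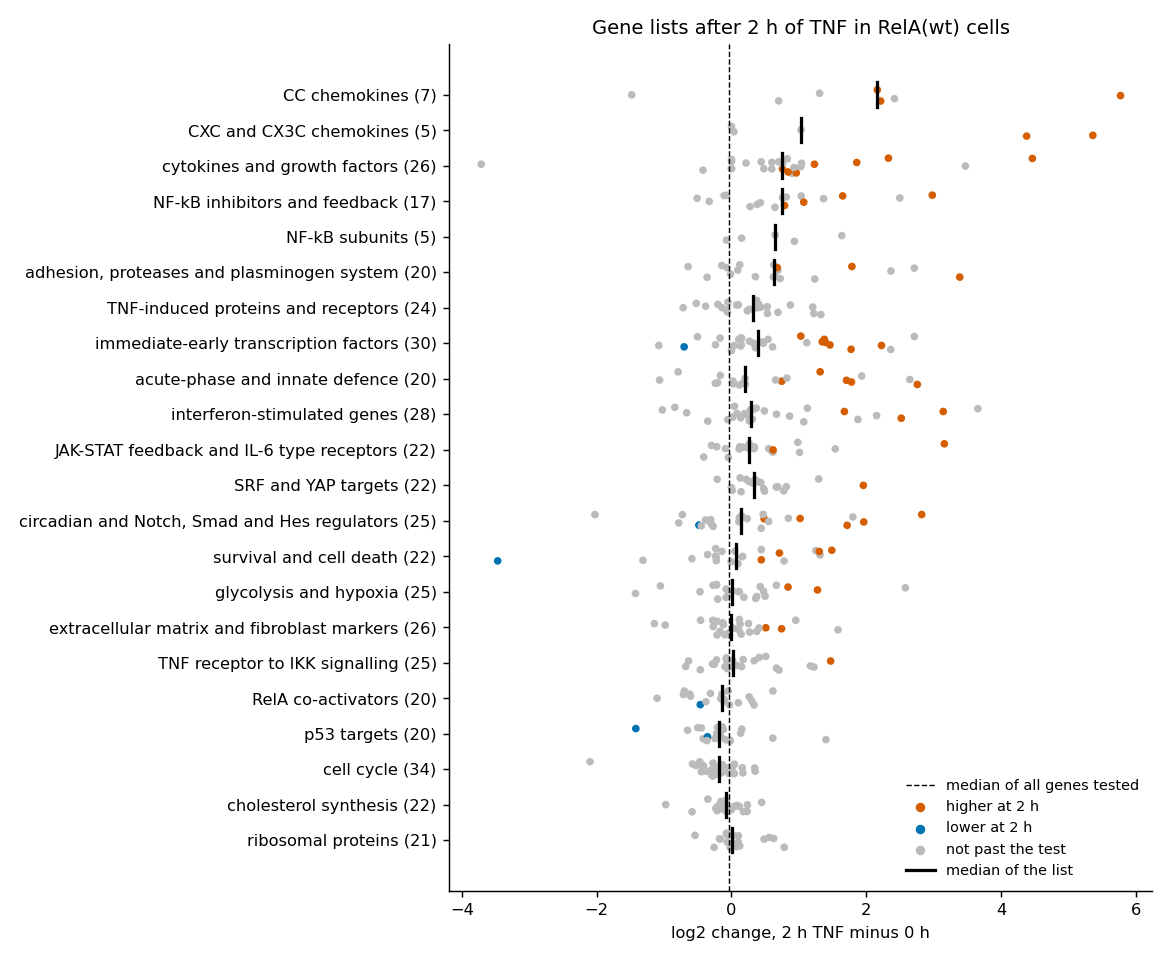
Log2 change (2 h TNF minus 0 h, by FPKM) of each tested member of 22 gene lists, with the number tested in parentheses. Orange members were higher at 2 h, blue ones lower and grey ones did not pass; the black bars are list medians, from 2.16 for CC chemokines to -0.19 for the cell cycle, and the dashed line is the median of all genes tested at -0.04.

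Of 22 survival and death genes 4 rose and 1 fell by FPKM, with a median log2 change of 0.07. On fragments 8 rose and 3 fell. Over all genes tested, 1.28% rose and 0.448% fell by FPKM, and 6.33% rose and 7.23% fell on fragments. Fas, a death receptor, stood at 13.0 and 12.9 FPKM at 2 h, against 4.54 and 4.07 FPKM at 0 h (log2 change 1.49 ± 0.16, adjusted p = 0.000682). Bcl2l1, which codes for the protective Bcl-xL, stood at 31.4 and 31.8 FPKM at 2 h, against 19.6 and 18.6 FPKM at 0 h (log2 change 0.71 ± 0.09, adjusted p = 0.00253). Phlda1 and Pmaip1 (Noxa) were the other increases. The single decrease was Bmf, a BH3-only killer protein, listed at 0 in both 2 h libraries and at 5.91 and 4.28 FPKM at 0 h (adjusted p = 0.00228). Among 20 p53 targets none rose by FPKM, and Sesn1 and Zmat3 fell; on fragments Plk2 rose and 5 fell, Zmat3 among them. Zmat3 fell by 0.36 ± 0.06 on the log2 scale. Sesn1, a stress-induced inhibitor of mTORC1, stood at 9.37 and 8.16 FPKM at 2 h, against 25.1 and 23.4 FPKM at 0 h, but its fragments, 27.8 and 25.6 FPM at 2 h and 35.3 and 33.7 at 0 h, did not pass (adjusted p = 0.0992).

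Thbs1, the matrix glycoprotein thrombospondin 1, stood at 143 and 146 FPKM at 2 h, against 34.8 and 38.9 FPKM at 0 h (log2 change 1.96 ± 0.20, adjusted p = 0.000498). It was the only call by FPKM among 22 SRF and YAP targets, whose median was 0.34, and 16 of the 22 rose on fragments with a median of 0.42. The collagen cross-linking enzymes Lox and Loxl2 rose by log2 changes of 0.74 ± 0.09 and 0.51 ± 0.09. They were the 2 calls by FPKM among 26 matrix and fibroblast genes, whose median was -0.01. On fragments 4 of the 26 rose and Pdgfra fell, beside 6.33% and 7.23% of all genes tested. Hk2, the hexokinase that starts glycolysis, stood at 20.1 and 23.99 FPKM at 2 h, against 9.02 and 8.55 FPKM at 0 h (log2 change 1.28 ± 0.14). The MAP kinase phosphatase genes Dusp10 and Dusp4 (2 of 15 in their list) and the heat shock co-chaperone gene Bag3 (1 of 12) rose by less than 2-fold.

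No call was made by FPKM (limma) among 34 cell cycle genes (median -0.19), 22 cholesterol synthesis genes (median -0.08), 21 ribosomal protein genes (median 0.00), 31 zinc-finger repressors (median -0.07), 18 stress-response genes (median -0.16), 13 mRNA decay genes (median -0.02) and 24 other TNF-induced proteins and receptors (median 0.32). At an unadjusted p under 0.05 these lists held 5, 0, 1, 3, 2, 0 and 8 genes in the same order. On fragments 6.33% of all genes tested rose and 7.23% fell, and small counts beside these shares are not read as results of a list. Of the 34 cell cycle genes 1 rose on fragments, Wee1, and 2 fell, Mki67 and Cdk2. Of the mRNA decay genes 2 rose (Zc3h12a and Zc3h12c) and 2 fell (Cnot1 and Khsrp). Of the stress-response genes Slc7a11 and Hspa5 rose and Ddit4 fell, and of the zinc-finger repressors Zfp944 fell. The cholesterol synthesis and ribosomal protein lists had no call on fragments, and 12 of the 24 TNF-induced genes rose. Stx11, a syntaxin of vesicle traffic, was among them, at 50.9 and 55.7 FPM at 2 h and 9.83 and 8.21 at 0 h (log2 change 2.50 ± 0.16, adjusted p = 2.16e-06).

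The decreases were fewer, and 19 of the 55 were called by FPKM alone, as were 30 of the 157 increases. Of the genes that fell, 9 were listed at 0 in both 2 h libraries, and of those that rose 27 were listed at 0 in both 0 h libraries. Lin28b, an RNA-binding repressor of let-7 maturation, was at 0 at 2 h and at 2.76 and 3.98 FPKM at 0 h (adjusted p = 0.000498), and the calcium channel gene Cacna1a was at 0 at 2 h and at 2.45 and 2.52 FPKM at 0 h (adjusted p = 0.00228). In the 0 h libraries assembled transcripts covered at most 34.3% of the exonic bases of Lin28b and 7.43% of those of Cacna1a. Their 0 h values thus rest on part of each gene. Ccng2, which codes for the growth-restraining cyclin G2, was the cleanest decrease among genes above 0 throughout. It stood at 4.35 and 4.38 FPKM at 2 h, against 10.5 and 10.5 FPKM at 0 h, and fell by 1.17 ± 0.11 on the log2 scale by FPKM (adjusted p = 0.00026) and by 1.37 on fragments. Cdkn2d, an inhibitor of CDK4 and CDK6, stood at 7.65 and 6.62 FPKM at 2 h, against 11.7 and 13.2 FPKM at 0 h. Psmd5, a chaperone of proteasome assembly, shows how the measures can part: it stood at 19.3 and 18.5 FPKM at 2 h against 141 and 111 FPKM at 0 h, and at 78.4 and 77.5 FPM against 95.8 and 94.5. Kifc1, Fam63b and Pnrc1 also fell by more in FPKM than in fragments.

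The same holds for some increases. Wdr92, a WD-repeat gene, stood at 225 and 227 FPKM at 2 h, against 34.7 and 32.9 FPKM at 0 h (log2 change 2.72 ± 0.09), and at 99.7 and 110 FPM at 2 h, against 34.2 and 31.5 at 0 h (log2 change 1.66). Kdelr3, a receptor that returns proteins to the endoplasmic reticulum, stood at 13.9 and 14.3 FPKM at 2 h and was listed at 0 in both 0 h libraries, with one 1 h library at 0 and the other at 13.1 FPKM. It overlaps Ddx17 on the other strand. BC090627, 1700094D03Rik and Gm20604 were listed at 0 at 0 h although other assembled transcripts covered up to 75.2%, 24.96% and 58.4% of their exonic bases in those libraries. Sprr2e (4.52 and 8.04 FPKM at 2 h, listed at 0 at 0 h) belongs to a cluster of similar genes. The others among the 25 largest increases were Stap2, Fam78b and Tac1, the substance P precursor gene, at 2.10 and 2.08 FPKM at 2 h and listed at 0 at 0 h.

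Of the 81 genes named by rule that passed the test, 51 stayed past it when any 1 of the 4 libraries was left out. The other 30 lost the call without at least 1 library, with a highest adjusted p between 0.0555 (Dusp10) and 0.167 (Pmaip1). Among them were Id2, Nfkbie, Nfkbib, Tnip1, Timp3, Tlr2, Vegfa, Ier3, Ifngr2, Dusp4, Loxl2, Arntl, Sharpin, Kdelr3, BC090627 and Fam78b among the increases and Psmd5, Pnrc1, Fam63b, Ncoa2, Zmat3, Cdkn2d, Sertad3, Stard8 and Cdc42ep2 among the decreases.

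Set beside the 1 h libraries of the same cells, the genes that were high at 2 h followed different courses. Comparisons of 2 h with 1 h and with 0 h share the 2 h libraries. Between 2 h and 1 h, 252 genes were higher at 2 h (2.05%) and 231 were lower (1.88%); on fragments 1275 of 11815 were higher (10.8%) and 1667 lower (14.1%). The increases numbered 139 without the first and 137 without the second 1 h library, and the decreases 113 without the first and 120 without the second 2 h library. Cxcl1 stood at 0 and 0 FPKM at 0 h, 173 and 200 FPKM at 1 h and 21.4 and 18.8 FPKM at 2 h, and was lower at 2 h than at 1 h (log2 change -3.18 ± 0.24, adjusted p = 5.72e-05). Irf1, Lif, Junb, Ier3, Phlda1, Tnfsf9 and Cxcl10 were likewise lower at 2 h than at 1 h. Tnfaip3 and Nfkbia had 1 h values of 283 and 274 FPKM and of 272 and 395 FPKM, and both were lower at 2 h than at 1 h. Csf2, Cxcl2 and Fos were listed above 0 at 1 h only, and Egr1 stood at 597 and 700 FPKM at 1 h.

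A second course was still climbing at 2 h. Csf1 stood at 23.6 and 23.1 FPKM at 0 h, 65.0 and 59.1 FPKM at 1 h and 115 and 124 FPKM at 2 h, and was higher at 2 h than at 1 h (log2 change 0.94 ± 0.11, adjusted p = 0.000852). Fas and Fosl2 followed the same order of levels and also differed between 2 h and 1 h. Ripk2, Cebpd, Nr4a2, Mt2, Hk2, Skil and Id2 did not differ between 1 h and 0 h past the test by FPKM and were higher at 2 h than at 1 h; Ripk2 stood at 5.74 and 6.01 FPKM at 1 h and Cebpd at 18.1 and 12.6 FPKM. On fragments Cebpd was already higher at 1 h than at 0 h (log2 change 0.68, adjusted p = 0.0337). Gbp5, Gbp7, Irf5, Tnip3 and Stap2 were listed at 0 at both 0 h and 1 h. For Ccl2, Ccl7, Ccl20, Il23a, Ptgs2, Icam1, Thbs1, Id1 and Id3 the difference between 2 h and 1 h did not pass the test by FPKM. On fragments Icam1 (log2 change 2.49 ± 0.27, adjusted p = 5.56e-05) and Id3 (0.64 ± 0.19, adjusted p = 0.0318) were higher at 2 h than at 1 h, and Ptgs2 (-0.64 ± 0.10, adjusted p = 0.000605) and Ccl20 (-0.65 ± 0.18, adjusted p = 0.0216) were lower. The largest increases over 1 h under the naming rule, in Rai12, Xirp2, Prpf39, Ppat, Ppip5k1 and Zfp688, were in genes that were listed above 0 at 0 h and, Xirp2 apart, at 0 in both 1 h libraries.

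**Figure D4:**
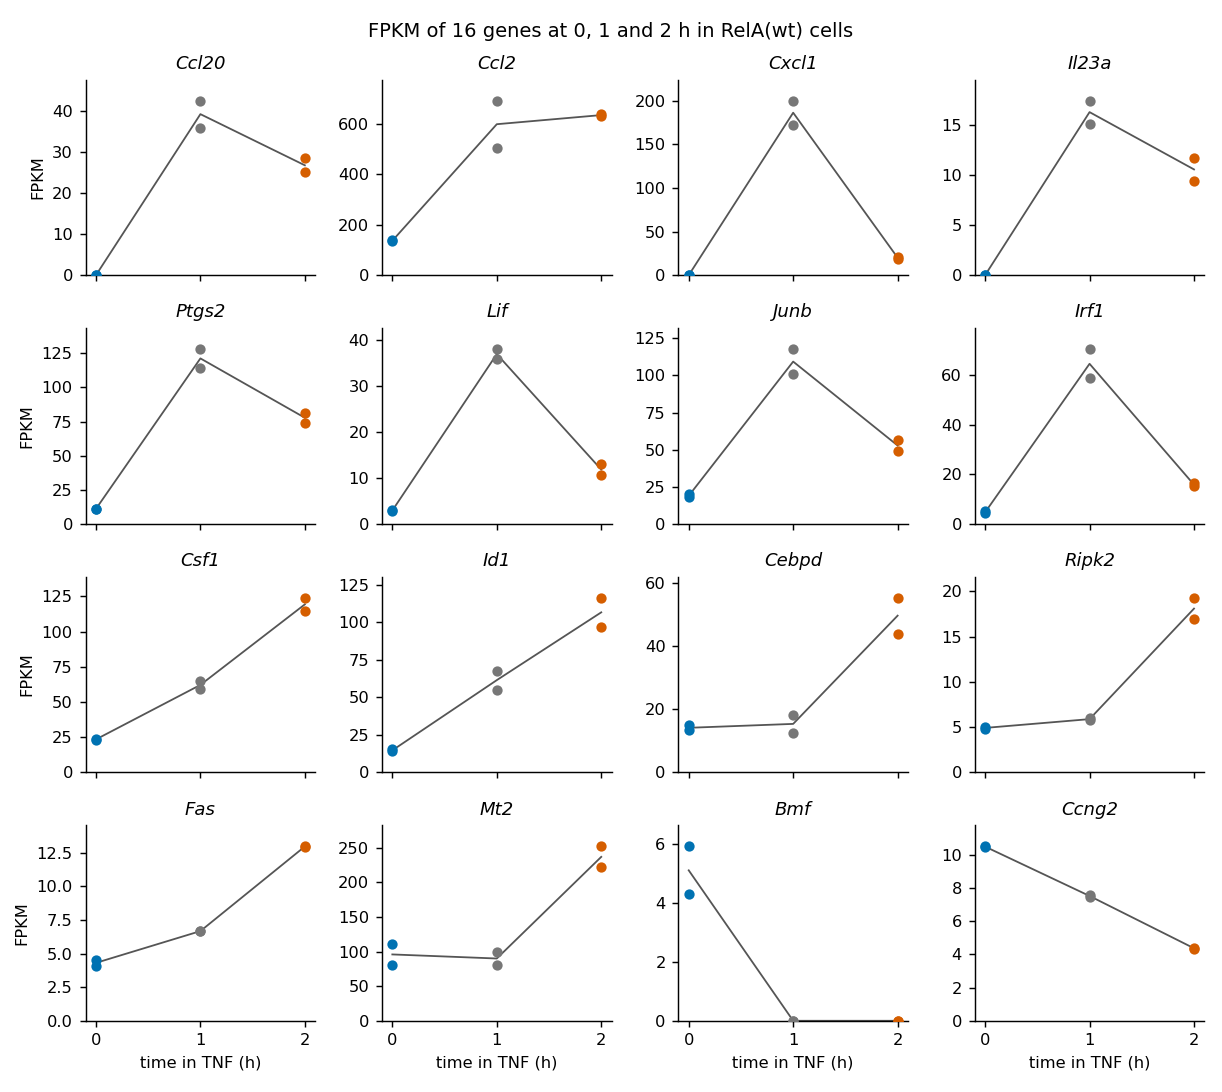
FPKM (vertical, from 0) at 0, 1 and 2 h in TNF for 16 genes in RelA(wt) cells, 1 point per library (blue 0 h, grey 1 h, orange 2 h) and a line through the means. Cxcl1, Lif, Junb and Irf1 are highest at 1 h, Csf1, Id1, Cebpd, Ripk2, Fas and Mt2 at 2 h, and Bmf and Ccng2 are lowest at 2 h or at 1 and 2 h.

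The change from 0 h to 2 h differed from that of RelA(wt) cells in 25 genes of RelA(TA2) cells (0.203% of those tested, 8 higher and 17 lower) and in 20 genes of RelA(Ser276Ala) cells (0.163%, 6 higher and 14 lower), by limma's test of the difference of changes. On fragments the counts were 34 (0.288%) and 28 (0.237%). The lines were not matched for RelA. At 2 h Rela, vector-borne RelA included, stood at 326.8 and 322.5 FPKM in RelA(TA2) cells. It stood at 189.8 and 173.7 FPKM in RelA(Ser276Ala) cells and at 168.5 and 155.6 FPKM in RelA(wt) cells. Immunoblots in the paper showed the Ser276Ala form to be scarcer than the wild-type form. What part these levels have in the comparisons between lines was not tested. These comparisons share the RelA(wt) libraries, and leaving out any 1 library of those compared raised the counts, to between 69 and 152 for RelA(TA2) cells and between 67 and 91 for RelA(Ser276Ala) cells. Ccl20 stood at 8.18 and 7.55 FPKM at 2 h in RelA(TA2) cells and was listed at 0 at 2 h in RelA(Ser276Ala) cells, against 25.1 and 28.5 FPKM in RelA(wt) cells; the differences of changes on the log2(FPKM + 0.5) scale were -1.71 ± 0.28 (adjusted p = 0.0431) and -5.77 ± 0.28 (adjusted p = 8e-06). Nlrp3 and Icam1 were listed at 0 at 2 h in RelA(Ser276Ala) cells, and their changes were smaller there than in RelA(wt) cells (adjusted p = 0.033 and 0.0163). In RelA(TA2) cells Nlrp3 stood at 7.54 and 3.48 FPKM at 2 h and Icam1 at 1.65 and 3.72 FPKM, and their differences did not pass. Gbp7 was listed at 0 at 2 h in both mutant lines. Tnfsf9 stood at 10.3 and 12.6 FPKM at 2 h against 14.4 and 17.3 FPKM at 0 h in RelA(TA2) cells, and at 5.93 and 6.24 FPKM at 2 h against 8.77 and 10.9 FPKM at 0 h in RelA(Ser276Ala) cells, with differences of -1.68 ± 0.20 (adjusted p = 0.00682) and -1.87 ± 0.20 (adjusted p = 0.00298) from the RelA(wt) change. Ripk2 stood at 5.29 and 5.73 FPKM at 2 h against 4.32 and 3.86 FPKM at 0 h in RelA(Ser276Ala) cells, a difference of -1.39 ± 0.19 from the RelA(wt) change (adjusted p = 0.0173). In RelA(TA2) cells the Ripk2 difference passed on fragments only (-0.91 ± 0.12, adjusted p = 0.0128). Mt2 went the other way in RelA(TA2) cells, at 537 and 535 FPKM at 2 h against 68.3 and 82.6 FPKM at 0 h (difference 1.51 ± 0.23, adjusted p = 0.0282), a difference that did not pass on fragments (adjusted p = 0.238). For Csf1, Ptgs2, Id1 and Cxcl1 the difference by FPKM did not pass in either line, and on fragments it passed for Ptgs2 in RelA(TA2) cells alone (-0.81 ± 0.14, adjusted p = 0.04); for Csf1 it was -0.38 ± 0.15 in RelA(TA2) cells and -0.37 ± 0.15 in RelA(Ser276Ala) cells.

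**Figure D5:**
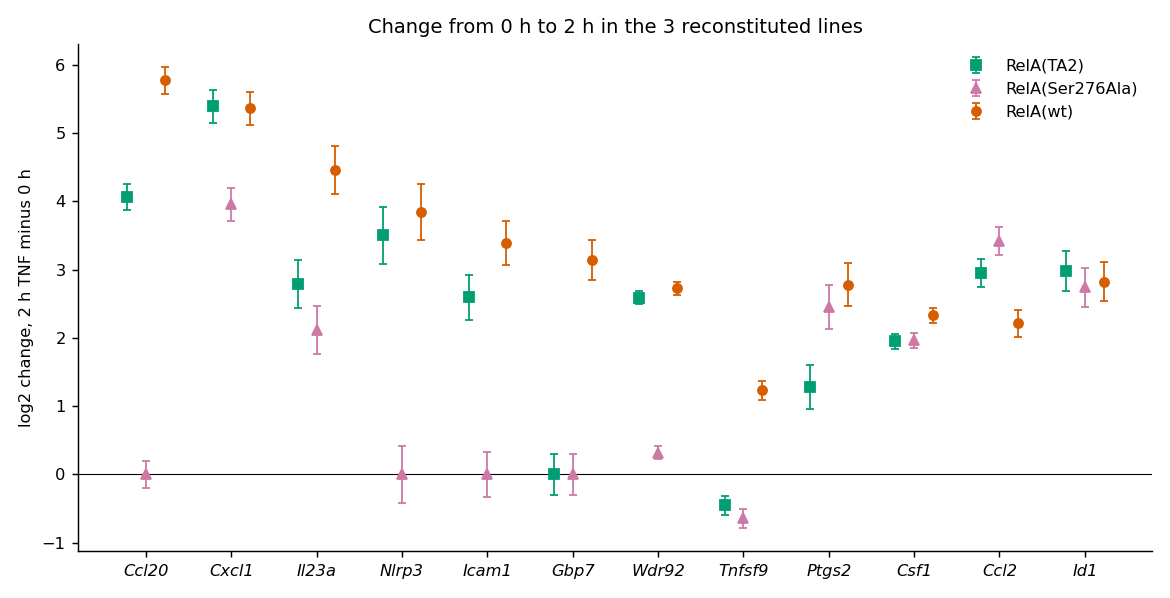
Log2 change from 0 h to 2 h (difference of means of log2(FPKM + 0.5), 2 libraries per time) of 12 genes in RelA(TA2), RelA(Ser276Ala) and RelA(wt) cells. Error bars are the SE of the fit to all 18 libraries. Each gene therefore has the same bar in every line, which is not the spread within that line. Ccl20 is 4.06 in RelA(TA2), 0 in RelA(Ser276Ala) and 5.77 in RelA(wt) cells, and Csf1 and Id1 lie between 1.95 and 2.98 in all 3 lines.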

How the data were processed

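Per the labels, RNA was reverse transcribed with poly-dT primers and made into TruSeq libraries, and the study's methods give sequencing on a HiSeq 2000. The submitters' processing notes name CASAVA 1.8.2, TopHat2 2.0.5 with Bowtie2 2.0.0.7 on mm10, and Cufflinks 2.0.2, which the authors ran on each library separately; strand use is not given in the sources used here, so overlapping genes on opposite strands cannot be told apart. The deposited files give transcript FPKM by the authors with other text in each line. Transcripts sharing at least 50% of their bases with the exons of a RefSeq gene in the deposited merged annotation were summed per gene (23212 genes, of which 288 shared an assembled transcript with the next gene and are called joined). At loci with a single assembled transcript, fragments were recovered from FPKM and its confidence limit. There 89.2 to 90.0% of the values under 500 fragments in these 4 libraries came out whole (within 0.02). Fragments per FPKM at such loci were then read as a curve of transcript length. The fragments of every transcript are its FPKM times the value of that curve. The check on whole values does not cover loci with several transcripts. limma 3.58.1 (R 4.3.3, variance trend) was fitted to log2(FPKM + 0.5) of all 18 libraries with 1 mean per condition, on genes with at least 1 FPKM in 2 libraries; no count model was run. Genes were named by rule: the 25 largest increases and 15 largest decreases called by both measures, apart from joined genes; genes of the study's expression experiments; up to 5 members of each of 36 lists by adjusted p (2 where none passed); the 6 largest changes in each direction between 2 h and 1 h; and up to 6 genes per mutant line. For the largest changes against 0 h and against 1 h, the libraries of the times compared also had to be free of overlap. The comparison, the lists and the rule were chosen with earlier results of these data known. Some values of genes named by the rule are not reported here.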

Additional observations from a re-analysis of the deposited data

Results flagged for a closer look

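The change from 0 h to 2 h differed between a mutant line and RelA(wt) cells, by limma's test of the difference of changes, in 16 genes that the text names. All values are mutant minus RelA(wt) on the log2(FPKM + 0.5) scale and depend on the 0.5 added where a gene was listed at 0. The lines also differed in RelA level, as given above, and the part of that level in these values was not tested. In RelA(TA2) cells the difference was -1.71 for Ccl20, -3.14 for Gbp7, -2.81 for 1700094D03Rik, -1.68 for Tnfsf9, 1.51 for Mt2, 2.88 for Lin28b and 1.53 for Kifc1. On recovered fragments the differences of 1700094D03Rik (adjusted p = 0.0902), Mt2 (adjusted p = 0.238), Lin28b (adjusted p = 0.154) and Kifc1 (0.16, adjusted p = 0.569) did not pass. Lin28b stood at 3.42 and 5.39 FPKM at 2 h in RelA(TA2) cells and was listed at 0 at 2 h in RelA(wt) cells. In RelA(Ser276Ala) cells the difference was -5.77 for Ccl20, -3.84 for Nlrp3, -3.71 for Sprr2e, -3.39 for Icam1, -3.14 for Gbp7, -2.81 for 1700094D03Rik, -1.87 for Tnfsf9, -1.39 for Ripk2 and -2.41 for Wdr92, which stood at 26.6 and 27.9 FPKM at 2 h in RelA(Ser276Ala) cells, against 225 and 227 FPKM in RelA(wt) cells. On recovered fragments the differences of Sprr2e (adjusted p = 0.0547) and 1700094D03Rik (adjusted p = 0.116) did not pass.

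The other differences also rest on genes listed at 0 in both libraries of at least one condition. So do those of Ccl20, Gbp7, 1700094D03Rik, Lin28b, Nlrp3, Icam1 and Sprr2e above. Rpl37, a ribosomal protein gene that stood at 1497 and 221 FPKM in the 2 h libraries of RelA(wt) cells, was listed at 0 in both 2 h libraries of RelA(TA2) cells and at 1238 and 1023 FPKM at 0 h there (difference -11.64). Fkbp2 was listed at 0 in the same libraries and at 39.7 and 47.9 FPKM at 0 h (difference -6.06). Prpf39 was listed at 0 in both 0 h libraries of RelA(TA2) cells and both 1 h libraries of RelA(wt) cells, and at 14.4 and 14.8 FPKM at 2 h in RelA(TA2) cells (difference 5.06). Kdelr3 was listed at 0 in both 2 h libraries of RelA(Ser276Ala) cells and both 0 h libraries of RelA(wt) and RelA(TA2) cells, and at 15.8 and 16.6 FPKM at 0 h in RelA(Ser276Ala) cells (difference -9.93). Fkbp2, Prpf39 and Kdelr3 each overlap a gene on the other strand, and its part in these values was not tested.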

How the results depend on the processing

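By FPKM, the counts of genes higher (157) and lower (55) at 2 h than at 0 h stayed within 1.5 times of these values with 0.1 or 1 FPKM added, with no filter or at least 5 FPKM in 2 libraries, with median-of-ratios scaling or quantile normalization, with the highest transcript only, without the variance trend, without joined genes and with genes above 0 in all 4 libraries only. They were 51 and 27 with only the 4 libraries fitted, which leaves fewer degrees of freedom. Leaving out 1 library gave 100 to 191 higher and 33 to 121 lower genes. Recovered fragments gave 748 and 854, and, in an alternative chosen after seeing the data, 433 and 297 without the first 0 h library, 514 and 390 without the second, 459 and 374 without the first 2 h library and 440 and 335 without the second. With the replicate number as a block the counts were 152 and 47 (743 and 863 on fragments, chosen after seeing the data); the deviations of same-numbered libraries of the 2 times had a correlation across genes of -0.0047 (FPKM) and -0.038 (fragments), so the numbers were not taken as pairs, and the block ended the call of 4 of the 81 named genes that passed; 18 lost it with the highest transcript only and 58 with only the 4 libraries fitted. Sharpin turned round on fragments, at -0.0096 (also with the block), and at -0.10 and -0.0198 without the first 0 h or first 2 h library; the cause was not tested. Between 2 h and 1 h, fragments placed 1275 genes higher and 1667 lower, and leaving out 1 library gave 137 to 220 higher and 113 to 214 lower genes. For the differences from RelA(wt), at least 5 FPKM in 2 libraries gave 16 genes for RelA(TA2) and 13 for RelA(Ser276Ala), 0.1 FPKM added gave 32 for RelA(Ser276Ala), and leaving out 1 library gave 69 to 152 and 67 to 91 genes; the cause was not tested. With 1 library left out, the lone one is assumed to vary like the rest. Having 2 libraries per time limits what can be called.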

Other observations

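The genes in this paragraph were picked from the calls of both measures after their values were seen, and they stand on none of the lists described above. Lrrc32, which codes for GARP, the cell-surface anchor of latent TGF-β, stood at 62.5 and 62.4 FPKM at 2 h, against 19.9 and 20.9 FPKM at 0 h (log2 change 1.59 ± 0.08, limma adjusted p = 1.64e-06). Rgs16 and Rgs2, brakes on G protein signalling, rose together: Rgs16 stood at 44.7 and 60.6 FPKM at 2 h, against 17.8 and 17.3 FPKM at 0 h (log2 change 1.54 ± 0.15), and Rgs2 at 16.7 and 19.3 FPKM at 2 h, against 6.90 and 8.16 FPKM at 0 h (log2 change 1.20 ± 0.16). S1pr1, a receptor of sphingosine 1-phosphate, Pde4b, a cyclic AMP phosphodiesterase, and Angptl4, an inhibitor of lipoprotein lipase, rose by log2 changes of 0.72 ± 0.09, 0.78 ± 0.11 and 1.17 ± 0.15. These genes passed the test without any 1 of the 4 libraries. Eif4b and Eif4ebp2, which promote and restrain cap-dependent translation, fell by 0.34 ± 0.06 each on the log2 scale; Eif4b stood at 233.2 and 233.1 FPKM at 2 h, against 301 and 290 FPKM at 0 h, and each passed in 1 of 4 such leave-outs.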
